A study of Mus musculus with 4 samples.

Results

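Axon guidance ligands and receptors were read in sorted striatal neurons of a Huntington's disease model. The genes were chosen by symbol alone: the protein-coding members of the semaphorins, plexins A to D, EphA and EphB receptors, ephrins A and B, Unc5 genes and Robo receptors, together with Nrp1, Nrp2, Ntn1, Ntn4, Dcc and Slit1 to Slit3. Sema5b is not analysed here. The rule gave 68 of the 37620 genes in the count table, of which 32 are ligands and 34 are receptors. The other 2, Unc50 and Unc5cl, carry the Unc5 prefix but are not netrin receptors. They are kept apart from that family but stay in the counts over all 68 genes.

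EGFP-positive spiny projection neurons were sorted from the striatum of male mice aged 5 to 6 months on a C57BL6/J background and sequenced as paired reads of 50 nt. The 4 groups held 1 library each, made by pooling 150000 sorted cells from each of 4 animals. D2 Q175 neurons came from mice heterozygous for the zQ175 knock-in, which puts an expanded CAG repeat into Htt, and carrying a Drd2-EGFP BAC transgene. D2 WT neurons came from wild-type littermates with that Drd2-EGFP transgene. D1 Q175 neurons came from heterozygous zQ175 knock-in mice with a Drd1-EGFP BAC transgene, and D1 WT neurons from wild-type littermates with the Drd1-EGFP transgene. Every group therefore carried an EGFP reporter, and the Drd2 or Drd1 sequences of that reporter defined which cells were collected: the indirect-pathway (D2) or the direct-pathway (D1) neurons of the striatum. Reporter line, pool and sort cannot be told apart from cell type.

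Guidance ligands steer growing axons by attraction or repulsion, and many stay expressed in the adult brain, where they act on dendrites, spines and synapses. Semaphorins signal through plexins, with neuropilins as co-receptors for most secreted class 3 semaphorins. Ephrins bind Eph receptor tyrosine kinases on neighbouring cells, netrins bind Dcc and Unc5 receptors, and Slit proteins bind Robo receptors.

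Library totals lay between 39444046 and 42787014 counts, so that 1 normalized CPM (a count scaled to library size with TMM factors, the unit used for every comparison of libraries) was worth 38.2 to 43.8 counts. A count of 0 allows up to 3 counts, or 0.0685 to 0.0784 CPM. The marker genes fixed for D2 neurons summed to 6759 and 12377 CPM in the D2 Q175 and D2 WT libraries and to 57.4 and 110 CPM in the D1 Q175 and D1 WT libraries. The D1 neuron markers summed to 3333 and 4781 CPM in the D1 Q175 and D1 WT libraries, against 133 and 190 CPM in the D2 Q175 and D2 WT libraries, so the cell type labels matched their markers. All 8 spiny neuron markers fell with genotype, and their sum was 9363 and 8897 CPM in the D2 Q175 and D1 Q175 libraries, against 15466 and 14727 CPM in the D2 WT and D1 WT libraries. Oligodendrocyte markers summed to 519 and 440 CPM in the D2 Q175 and D1 Q175 libraries and to 397 and 365 CPM in the D2 WT and D1 WT libraries, and 7 of the 9 tested rose. Astrocyte markers summed to 247 and 179 CPM in the D2 Q175 and D1 Q175 libraries. In the D2 WT and D1 WT libraries they summed to 194 and 163 CPM, and 3 of 8 were higher in Q175. These marker calls come from the genotype test described below, which called 13.8% of all genes higher and 14% lower. Mitochondrially encoded transcripts took 11.1% and 8.98% of counts in the D2 Q175 and D1 Q175 libraries, against 6.49% and 6.06% in the D2 WT and D1 WT libraries. Microglial markers summed to 42.3 and 36.2 CPM in the D2 Q175 and D1 Q175 libraries and to 33.99 and 28.08 CPM in the D2 WT and D1 WT libraries. Endothelial, mural, oligodendrocyte precursor, interneuron and glutamatergic neuron markers each summed to at most 14.0 CPM in every library. No matched marker of these lists was at 0 in all 4 libraries. The part of these shifts in the results that follow was not tested. In such pools, fewer cells of a type and less RNA per cell cannot be told apart.

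Nearly every family was present in the sorted neurons. Of the 68 genes, 56 reached 1 CPM and 47 reached 5 CPM in at least 1 library, and 63 passed the filter on low counts and were tested. The 5 that did not were Epha1, Epha2, Ephb3, Efna4 and Unc5cl, none above 0.32 CPM. Between genes, levels are compared in the authors' FPKM, which is per transcript length. Among the ligands, the ephrin Efnb3 was the most abundant, with 40.6 and 63.3 FPKM in the D2 Q175 and D2 WT libraries and 29.6 and 49.8 FPKM in the D1 Q175 and D1 WT libraries. The GPI-anchored semaphorin Sema7a averaged 37.6 FPKM over the 4 libraries, the GPI-anchored ephrin Efna3 averaged 35.4 FPKM, and the transmembrane semaphorin Sema6b averaged 30.8 FPKM. The secreted cues lay below these, the highest being Sema3f at 8.94 FPKM and Sema3e at 7.82 FPKM on average. Some membrane-bound ligands were lower still, such as Efna5 at 0.808 FPKM and Sema6a at 0.305 FPKM. Among the other secreted cues, Slit3 averaged 4.86 FPKM and Ntn1, the canonical netrin, 0.455 FPKM.

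Among the receptors, Ephb6, an Eph receptor with an inactive kinase domain, had the highest level, with 108 and 86.9 FPKM in the D2 Q175 and D2 WT libraries and 121 and 93.0 FPKM in the D1 Q175 and D1 WT libraries. The netrin receptor Unc5a averaged 43.6 FPKM, the ephrin receptor Epha4 26.4 FPKM, the Slit receptor Robo2 24.3 FPKM, the semaphorin 4 receptor Plxnb2 23.6 FPKM and the semaphorin 3 co-receptor Nrp1 2.22 FPKM. Dcc, the attractive netrin receptor, averaged 0.691 FPKM, so among Dcc and the Unc5 receptors the level was mostly that of Unc5a. Neighbouring family members could differ widely in level. Efna3 lies between Efna1 and Efna4 on the mouse genome, and these averaged 0.173 and 0.0876 FPKM. Robo1 and Robo2 are also neighbours and averaged 5.43 and 24.3 FPKM.

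**Figure D1:**
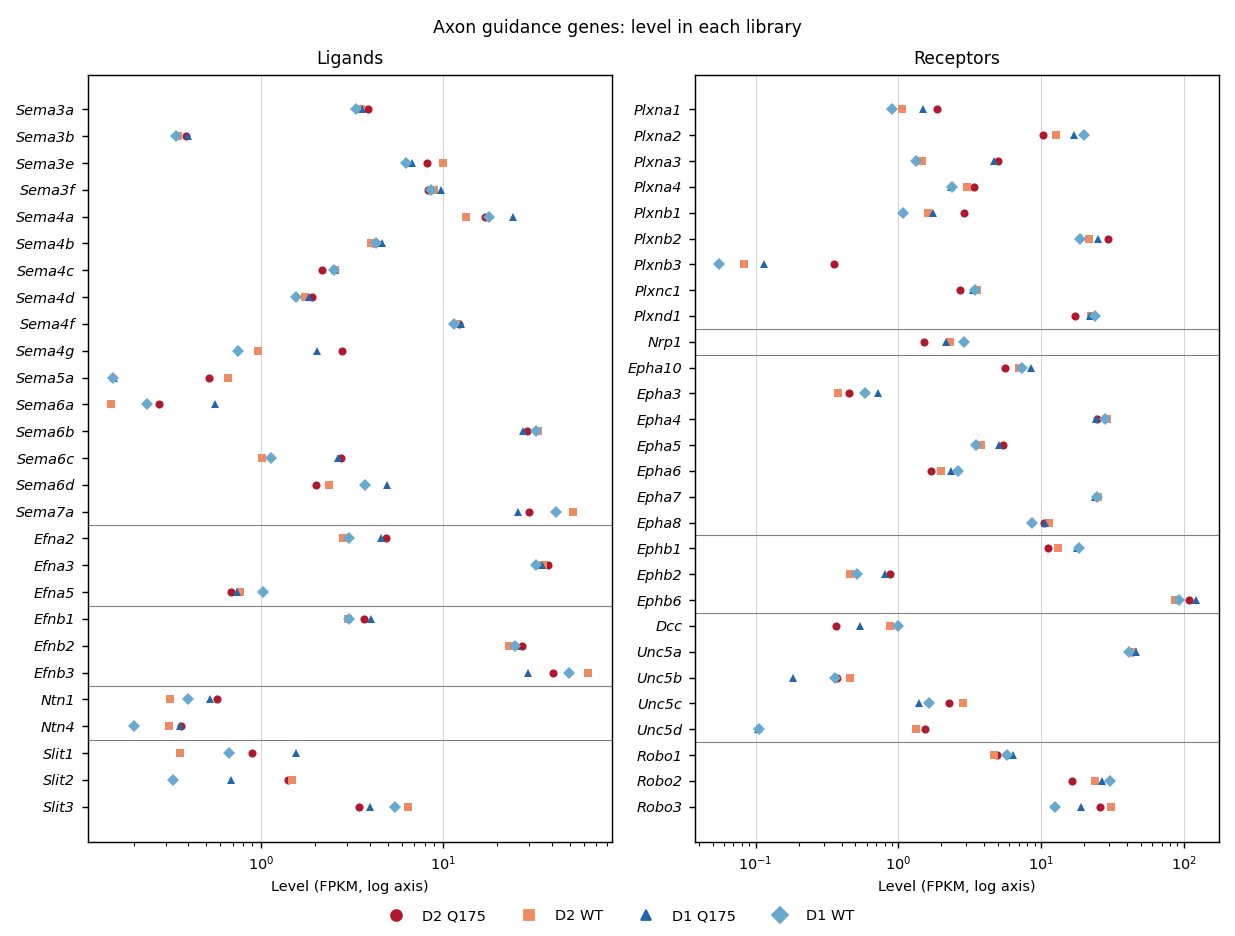
Level of each ligand (left) and receptor (right) with at least 1 CPM in any library, in FPKM on a log axis, with 1 point per library and lines between families. Levels span from under 0.1 FPKM for Plxnb3 in the D2 WT and D1 WT libraries to over 100 FPKM for Ephb6 in the D2 Q175 and D1 Q175 libraries.

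The question put by the study's design is how the knock-in changes gene expression in each pathway's neurons. A genotype effect shared by D2 and D1 neurons was tested with edgeR's quasi-likelihood test, fitted to all 4 libraries with cell type as a second term and adjusted by the Benjamini-Hochberg method over 15668 genes. The guidance genes split evenly in direction: 14 of the 63 tested were higher in Q175 and 15 were lower, at an adjusted p under 0.05. Unc50 is among the 15. Of all genes tested, 27.8% were called in that fit, 13.8% higher and 14% lower, whereas 29 of 63 guidance genes were called. Among genes with at least 5 CPM in any library, 24 of 47 guidance genes were called, beside 31% of all such genes. The median log2 fold change was 0.014 over the guidance genes and 0.004 over all genes. The fit has 1 residual degree of freedom, which lets through some genes whose change is seen in D2 or D1 alone, and anything else shared by both Q175 libraries counts as genotype. Scaled to library totals instead, 16 were higher and 8 lower, and without cell type in the edgeR fit 0 were called, with 19 at an unadjusted p under 0.05. DESeq2 with both terms called 17.

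Ligands and receptors differed in their balance of calls, although this difference was not tested. Of 31 ligands tested, 8 were higher and 4 lower in Q175, while of 31 receptors 6 were higher and 10 lower. Direction also went with level. Of the 31 guidance genes above a mean of 15.5 CPM, 2 were higher and 12 lower, and of the 32 at or below it, 12 were higher and 3 lower. All genes leaned the same way, with 9.73% higher and 19.4% lower above that level and 18.5% higher and 7.59% lower at or below it. Between single libraries, 3 of the 45 guidance genes with at least 5 CPM were 2-fold apart in D2 (6.67%, beside 2.41% of all genes, 1.35% higher and 1.06% lower). In D1 they were 4 of 44 (9.09%, beside 1.82% of all genes, 1.12% higher and 0.705% lower). All of them were higher in Q175: Plxna3, Sema4g and Sema6c in both cell types, and Slit1 in D1. Below the limit of 5 CPM, 2-fold ratios went in both directions. In D2, for example, Slit1 was 2.32-fold higher, at 4.98 CPM in Q175, and Dcc was 2.55-fold lower, at 4.68 CPM in WT.

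**Figure D2:**
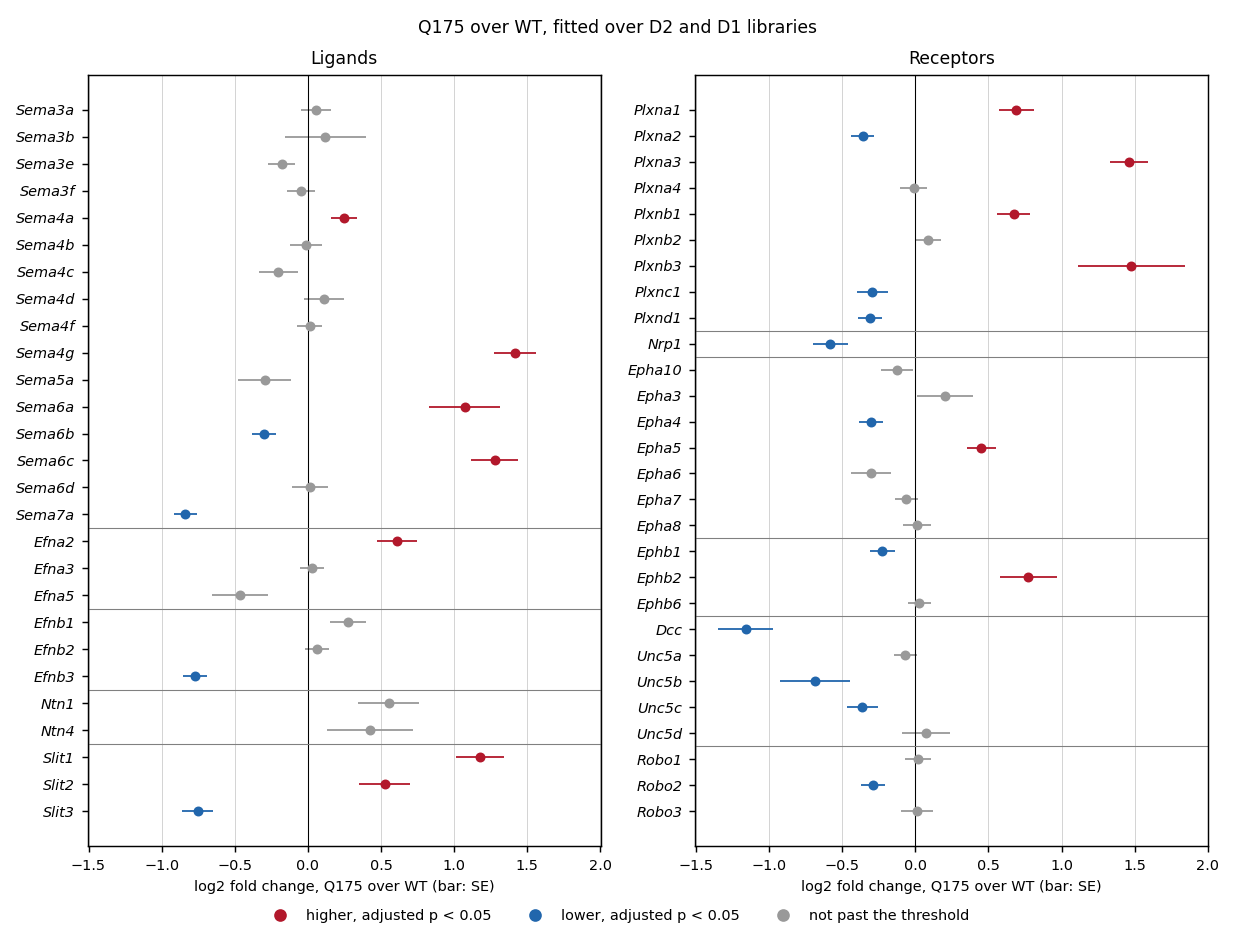
Shared genotype effect of the ligands (left) and receptors (right) with at least 1 CPM in any library, as log2 fold change of Q175 over WT with its standard error. Sema4g, Sema6c and Plxna3 lie above 1.2, while Dcc, Sema7a, Efnb3 and Slit3 lie below -0.7.

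The semaphorin changes with the smallest adjusted p fell on Sema4g, Sema6c and Sema7a. The promoters of these genes, and of the plexin Plxna3, are shown because these 4 genes had the smallest adjusted p of the semaphorin and plexin families. Each line gives the 250 bases upstream of the RefSeq transcription start on GRCm38.p6, 5′ to 3′ on the gene's strand, and capitals mark a match to GCGNGGGCG, the motif of the Egr zinc-finger factors, on either strand. Sema6c has 2 starts in the table and the one listed earliest is shown.
Sema4g (chr19:44989094-44989343, plus strand): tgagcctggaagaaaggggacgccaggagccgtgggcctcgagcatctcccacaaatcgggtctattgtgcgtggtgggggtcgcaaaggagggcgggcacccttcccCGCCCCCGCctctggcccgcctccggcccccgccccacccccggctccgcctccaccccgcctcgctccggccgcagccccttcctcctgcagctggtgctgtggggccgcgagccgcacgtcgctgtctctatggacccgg
Sema6c (chr3:95160170-95160419, plus strand): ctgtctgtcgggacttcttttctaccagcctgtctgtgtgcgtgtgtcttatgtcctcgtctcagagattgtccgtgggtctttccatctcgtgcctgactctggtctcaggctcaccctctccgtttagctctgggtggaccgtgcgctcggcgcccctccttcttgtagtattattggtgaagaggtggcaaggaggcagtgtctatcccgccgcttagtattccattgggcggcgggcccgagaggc
Plxna3 (chrX:74328816-74329065, plus strand): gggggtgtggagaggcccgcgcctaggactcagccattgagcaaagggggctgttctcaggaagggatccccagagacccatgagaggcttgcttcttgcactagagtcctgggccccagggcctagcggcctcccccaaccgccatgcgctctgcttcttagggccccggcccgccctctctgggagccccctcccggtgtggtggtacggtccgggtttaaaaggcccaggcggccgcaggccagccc
Sema7a (chr9:57939862-57940111, plus strand): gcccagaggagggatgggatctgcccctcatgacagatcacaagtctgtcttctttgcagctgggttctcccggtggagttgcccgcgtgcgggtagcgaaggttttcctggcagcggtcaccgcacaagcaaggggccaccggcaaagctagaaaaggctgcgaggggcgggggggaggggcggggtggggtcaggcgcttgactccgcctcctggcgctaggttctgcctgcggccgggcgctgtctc
The Sema4g window held 24 CpG dinucleotides and 1 Egr match, and the other windows held 15 in Sema6c, 12 in Plxna3 and 17 in Sema7a, with no Egr match. None of them held TGACG, the half-site of CREB-type factors, on either strand. Over the 58 guidance genes with an entry in the RefSeq table, 11 (19%) held the Egr motif, beside 6.25% of 17491 protein-coding promoters of the same length. The GC box GGGCGG, which can overlap the Egr motif, was in 44 of 58 (75.9%), beside 42.7% of all, and TGACG in 7 of 58 (12.1%), beside 20.3% of all. The guidance windows were also richer in CpG, with a median of 16 beside 10 over all protein-coding promoters. The median CpG number was 20 in 11 promoters of genes higher in Q175, 18 in 13 promoters of lower genes and 16 in 29 promoters of genes not called.

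Sema4g, a transmembrane class 4 semaphorin, had 12.5 and 4.53 CPM in the D2 Q175 and D2 WT libraries and 8.93 and 3.50 CPM in the D1 Q175 and D1 WT libraries. Both Q175 libraries stood above both WT libraries. The log2 fold change was 1.42 ± 0.14 (SE; edgeR adjusted p = 1.1e-07). Sema6c, a transmembrane class 6 semaphorin, had 9.45 and 3.45 CPM in the D2 Q175 and D2 WT libraries and 7.61 and 3.61 CPM in the D1 Q175 and D1 WT libraries. Here too the genotypes did not overlap, and the log2 fold change was 1.28 ± 0.16 (edgeR adjusted p = 1.6e-06). Sema6a, whose product signals through A-type plexins, had 1.78 and 0.981 CPM in the D2 Q175 and D2 WT libraries and 3.33 and 1.41 CPM in the D1 Q175 and D1 WT libraries. It was higher in Q175 within each cell type, by 1.07 ± 0.24 on the log2 scale (edgeR adjusted p = 0.0018). With DESeq2, Sema6a was not called (adjusted p = 0.14).

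Sema7a, which binds the plexin Plxnc1 and beta-1 integrins, moved the other way. It had 95.8 and 177 CPM in the D2 Q175 and D2 WT libraries and 82.5 and 144 CPM in the D1 Q175 and D1 WT libraries. Both Q175 libraries lay below both WT libraries, with a log2 fold change of -0.84 ± 0.08 (edgeR adjusted p = 4.7e-08). Its receptor gene Plxnc1 also fell, by 0.29 on the log2 scale (edgeR adjusted p = 0.041), with 18.7 and 25.9 CPM in the D2 Q175 and D2 WT libraries and 22.7 and 25.0 CPM in the D1 Q175 and D1 WT libraries. The Plxnc1 ratio was -0.465 in D2 and -0.14 in D1 (95% counting interval -0.27 to -0.007). Only 1 of the alternative fits described below kept the Plxnc1 call. The abundant Sema6b fell by 0.30 (edgeR adjusted p = 0.0063) and Sema4a rose by 0.25 (edgeR adjusted p = 0.039). Sema3d was called at 12 and 2 counts in the D2 Q175 and D2 WT libraries and 15 and 2 counts in the D1 Q175 and D1 WT libraries. Its ratio of Q175 to WT was 1.70 on the log2 scale in D2 (95% counting interval 0.28 to 5.65) and 2.01 in D1 (0.67 to 5.95), so its size is poorly known. The other 12 of the 19 semaphorins tested did not pass. They include the class 3 members Sema3a, Sema3e and Sema3f, with log2 fold changes of 0.05, -0.18 and -0.05.

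**Figure D3:**
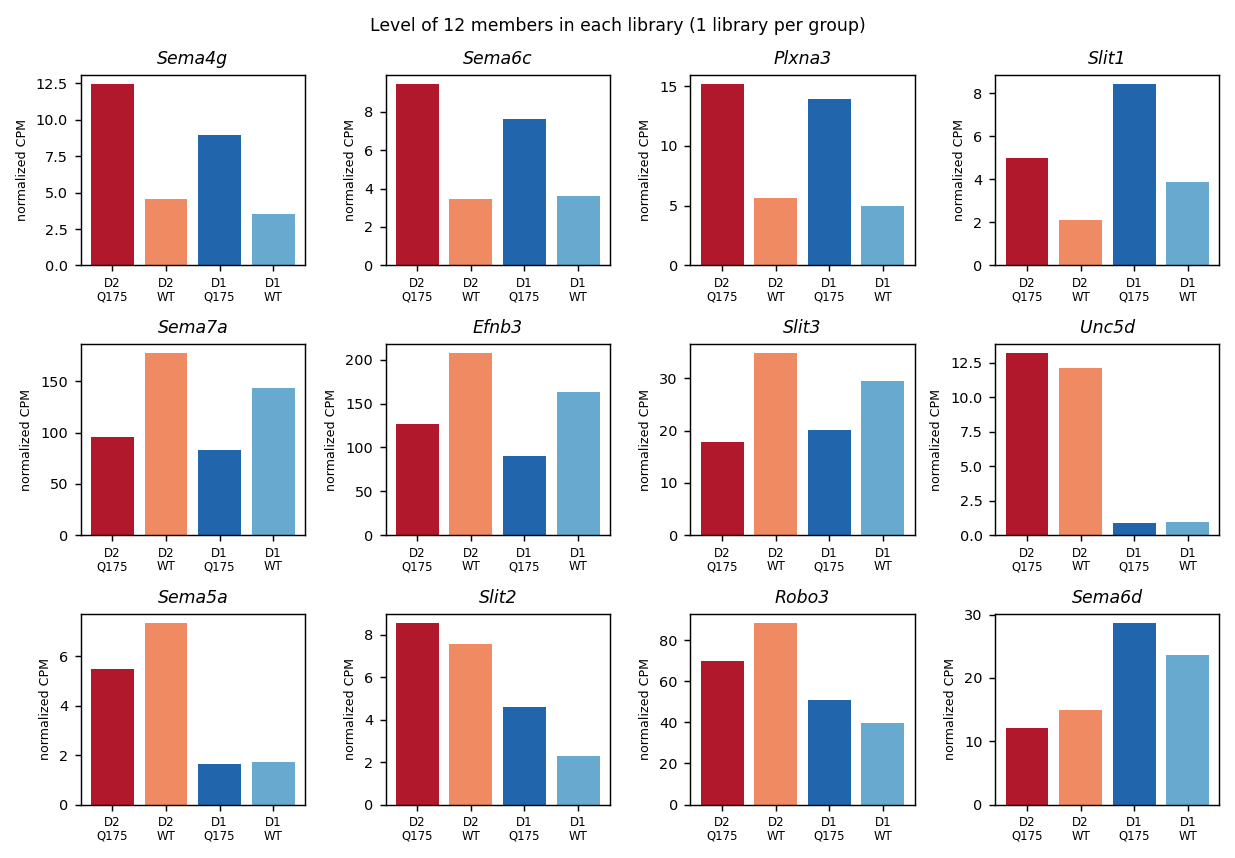
Level of 12 guidance genes in the 4 libraries, in normalized CPM, with 1 bar per library and the axis starting at 0 in each panel. In Sema4g, Sema6c and Plxna3 both Q175 bars stand above both WT bars, in Sema7a, Efnb3 and Slit3 both stand below, and in Unc5d and Sema5a the D2 bars stand above the D1 bars.

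The plexins, the main semaphorin receptors, were called in both directions, 4 higher and 3 lower of 9, beside 27.8% of all genes called. Plxna3 had 15.2 and 5.66 CPM in the D2 Q175 and D2 WT libraries and 13.9 and 4.97 CPM in the D1 Q175 and D1 WT libraries. It was 2.67-fold higher in Q175 in D2 and 2.78-fold higher in D1, with a shared log2 fold change of 1.46 ± 0.13 (edgeR adjusted p = 1.4e-08). Plxna1 had 16.6 and 9.89 CPM in the D2 Q175 and D2 WT libraries and 13.0 and 8.45 CPM in the D1 Q175 and D1 WT libraries. Both genes encode receptors that pair with neuropilins, and Plxna1 rose by 0.69 ± 0.12 on the log2 scale (edgeR adjusted p = 0.00012). Plxnb1, a receptor of the semaphorin Sema4d, had 23.7 and 14.2 CPM in the D2 Q175 and D2 WT libraries and 14.4 and 9.60 CPM in the D1 Q175 and D1 WT libraries. It was higher in Q175 within each cell type, by 0.67 ± 0.11 (edgeR adjusted p = 8.0e-05), while D2 WT and D1 Q175 lay close together.

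Plxnb3 was low, with 1.69 and 0.478 CPM in the D2 Q175 and D2 WT libraries and 0.598 and 0.314 CPM in the D1 Q175 and D1 WT libraries. The D2 Q175 library stood apart from the other 3, and the shared log2 fold change was 1.48 ± 0.37 (edgeR adjusted p = 0.0037). This call was lost with DESeq2 (adjusted p = 0.25). Plxnb3 is known from oligodendrocytes as well, and the oligodendrocyte markers summed to 519 and 397 CPM in the D2 Q175 and D2 WT libraries and to 440 and 365 CPM in the D1 Q175 and D1 WT libraries. Plxnb3 and this sum were both highest in D2 Q175 and lowest in D1 WT, and the part of oligodendrocyte RNA in the Plxnb3 difference was not tested. The 3 plexins that fell were more abundant in mean FPKM, although Plxnc1, at 3.27 FPKM, was close to the rising Plxna3, at 3.10 FPKM. Plxna2, a receptor of class 6 semaphorins, had 110 and 143 CPM in the D2 Q175 and D2 WT libraries and 176 and 225 CPM in the D1 Q175 and D1 WT libraries, and fell by 0.36 (edgeR adjusted p = 0.0017). Plxnd1, the receptor of Sema3e, fell by 0.31 (edgeR adjusted p = 0.0061). Its ligand gene Sema3e was not called, at 54.4 and 70.1 CPM in the D2 Q175 and D2 WT libraries and 44.3 CPM in each D1 library. Plxna4 and Plxnb2 were not called, with log2 fold changes of -0.01 and 0.09. Plxnb2 was called higher by limma on log2(FPKM + 0.1), at 0.42 (adjusted p = 0.022).

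Of the neuropilins, Nrp1 fell. It had 8.79 and 14.1 CPM in the D2 Q175 and D2 WT libraries and 12.3 and 17.5 CPM in the D1 Q175 and D1 WT libraries, lower in Q175 within each cell type, with a log2 fold change of -0.58 ± 0.12 (edgeR adjusted p = 0.00063). Nrp2 stayed under 1 CPM in all 4 libraries and was not called.

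In the ephrin and Eph system the smallest adjusted p was that of a ligand. Efnb3, a transmembrane ephrin that is bound by Eph receptors including Epha4, had 126 and 208 CPM in the D2 Q175 and D2 WT libraries and 90.8 and 164 CPM in the D1 Q175 and D1 WT libraries. It fell by 0.77 ± 0.08 on the log2 scale (edgeR adjusted p = 1.7e-07), and both Q175 libraries lay below both WT libraries. The other ephrin-B genes did not pass, Efnb1 at a log2 fold change of 0.27 and Efnb2 at 0.06. Among the GPI-anchored ephrins, Efna2 had 10.2 and 6.19 CPM in the D2 Q175 and D2 WT libraries and 9.45 and 6.75 CPM in the D1 Q175 and D1 WT libraries. It rose by 0.61 ± 0.14 (edgeR adjusted p = 0.0017), with no overlap between genotypes. With DESeq2, Efna2 was not called (adjusted p = 0.080). The abundant Efna3 was not called, at 87.7 and 86.4 CPM in the D2 Q175 and D2 WT libraries and 80.3 and 79.3 CPM in the D1 Q175 and D1 WT libraries. Efna5 was not called either, at a log2 fold change of -0.46 ± 0.19 (edgeR adjusted p = 0.074).

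Of 11 Eph receptors tested, 2 were higher and 2 lower, beside 27.8% of all genes called. Epha4, a receptor with a broad choice of A- and B-type ephrins, had 150 and 185 CPM in the D2 Q175 and D2 WT libraries and 145 and 181 CPM in the D1 Q175 and D1 WT libraries. Its genotypes did not overlap, and it fell by 0.30 ± 0.08 (edgeR adjusted p = 0.0062). Ephb1 also fell, by 0.22 ± 0.08 (edgeR adjusted p = 0.045). Epha5 rose by 0.45 ± 0.10 (edgeR adjusted p = 0.0017), with 25.5 and 18.6 CPM in the D2 Q175 and D2 WT libraries and 23.3 and 17.2 CPM in the D1 Q175 and D1 WT libraries. Ephb2, a synaptic Eph receptor that interacts with NMDA receptors, had 4.45 and 2.21 CPM in the D2 Q175 and D2 WT libraries and 4.00 and 2.77 CPM in the D1 Q175 and D1 WT libraries. Both Q175 values were above both WT values, and it rose by 0.77 ± 0.19 (edgeR adjusted p = 0.0040). The Ephb2 call was lost with DESeq2 (adjusted p = 0.17). Ephb6, the most abundant receptor in FPKM, was not called. It had 143 and 147 CPM in the D2 Q175 and D2 WT libraries. In the D1 Q175 and D1 WT libraries it had 175.3 and 166.1 CPM. On log2(FPKM + 0.1), limma called it higher in Q175, at 0.35 (adjusted p = 0.034).

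Of 5 netrin receptors, 3 were lower in Q175 and none higher, and neither netrin was called, beside 27.8% of all genes called. This split rested on the scaling: with library totals Unc5b (edgeR adjusted p = 0.077) and Unc5c (edgeR adjusted p = 0.054) were no longer called and Ntn1 was (edgeR adjusted p = 0.039). DESeq2 called Dcc alone of these 7 genes. Dcc had 1.804 and 4.68 CPM in the D2 Q175 and D2 WT libraries and 2.68 and 5.28 CPM in the D1 Q175 and D1 WT libraries. Both Q175 libraries lay below both WT libraries, and the log2 fold change was -1.16 ± 0.19 (edgeR adjusted p = 5.9e-05). The repulsive receptor Unc5b had 2.10 and 2.77 CPM in the D2 Q175 and D2 WT libraries and 1.03 and 2.17 CPM in the D1 Q175 and D1 WT libraries, and fell by 0.69 ± 0.24 (edgeR adjusted p = 0.033). The D2 Q175 and D1 WT values of Unc5b were nearly equal. Its log2 ratio of Q175 to WT was -0.39 in D2 (counting interval -0.81 to 0.015) and -1.04 in D1 (-1.64 to -0.53). The fall of Unc5b was thus clear of counting error in D1 but not in D2. Unc5c had 20.3 and 26.9 CPM in the D2 Q175 and D2 WT libraries and 12.4 and 15.6 CPM in the D1 Q175 and D1 WT libraries, and fell by 0.36 ± 0.11 (edgeR adjusted p = 0.012). The most abundant of these receptors, Unc5a, was not called, at 134 and 146 CPM in the D2 Q175 and D2 WT libraries and 134 and 136 CPM in the D1 Q175 and D1 WT libraries. Ntn1 had 3.24 and 1.89 CPM in the D2 Q175 and D2 WT libraries and 2.92 and 2.35 CPM in the D1 Q175 and D1 WT libraries. Its Q175 values lay above its WT values, but the log2 fold change of 0.55 ± 0.21 missed the threshold (edgeR adjusted p = 0.053). Ntn4 was not called, at 0.42 ± 0.29. Unc50, kept apart from the netrin receptors, fell by 0.29 (edgeR adjusted p = 0.024).

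All 3 Slit genes, which encode secreted repellents, were called, in opposite directions, beside 27.8% of all genes called. Slit1 had 4.98 and 2.11 CPM in the D2 Q175 and D2 WT libraries and 8.45 and 3.90 CPM in the D1 Q175 and D1 WT libraries. It was 2.32-fold higher in Q175 in D2 and 2.15-fold higher in D1, and the shared log2 fold change was 1.18 ± 0.17 (edgeR adjusted p = 9.8e-06). Slit3 had 17.8 and 34.8 CPM in the D2 Q175 and D2 WT libraries and 20.1 and 29.5 CPM in the D1 Q175 and D1 WT libraries. It fell by 0.75 ± 0.11 (edgeR adjusted p = 1.2e-05), with both Q175 libraries below both WT libraries. Slit2 had 8.56 and 7.57 CPM in the D2 Q175 and D2 WT libraries and 4.59 and 2.30 CPM in the D1 Q175 and D1 WT libraries. Its shared log2 fold change of 0.52 ± 0.18 passed (edgeR adjusted p = 0.028), but the ratio was 0.18 in D2 (95% counting interval -0.05 to 0.40) and 0.98 in D1 (0.63 to 1.38). DESeq2 did not call Slit2 (adjusted p = 0.25). Of their Robo receptors, only Robo2 among the 4 tested was called, with 94.8 and 116 CPM in the D2 Q175 and D2 WT libraries and 138 and 170 CPM in the D1 Q175 and D1 WT libraries, a fall of 0.29 (edgeR adjusted p = 0.0083).

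The genotype ratios of D2 and D1 neurons share no library and could be set side by side. Over the 56 guidance genes with at least 1 CPM in any library, Pearson's r was 0.868 and Spearman's rho 0.841, and 44 had the same sign in both. Over all 13722 such genes, r was 0.732, rho 0.704 and 10374 had the same sign. These are correlations across genes, which are not independent replicates, and all 4 libraries share the study's preparation. The difference between the genotype effects could not be tested with 1 library per group. By size, 3 of 47 guidance genes (6.38%, beside 3.95% of all genes) had ratios at least 0.5 log2 units apart, Robo3, Sema6d and Slit2, each lower in D2 than in D1.

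Robo3, which in the developing hindbrain and spinal cord controls midline crossing, had 70.1 and 88.6 CPM in the D2 Q175 and D2 WT libraries and 51.1 and 39.5 CPM in the D1 Q175 and D1 WT libraries. Its log2 ratio of Q175 to WT was -0.34 in D2 (95% counting interval -0.41 to -0.27) and 0.37 in D1 (0.27 to 0.47). The D2 and D1 values were thus closer together in Q175 than in WT neurons. Sema6d, a transmembrane ligand of Plxna1, had 12.1 and 15.0 CPM in the D2 Q175 and D2 WT libraries and 28.7 and 23.6 CPM in the D1 Q175 and D1 WT libraries, a log2 ratio of -0.31 in D2 (-0.48 to -0.14) and 0.29 in D1 (0.16 to 0.41). Here the D1 excess was wider in Q175 than in WT. Neither Robo3 nor Sema6d was called in the shared effect, where both log2 fold changes were 0.01.

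**Figure D4:**
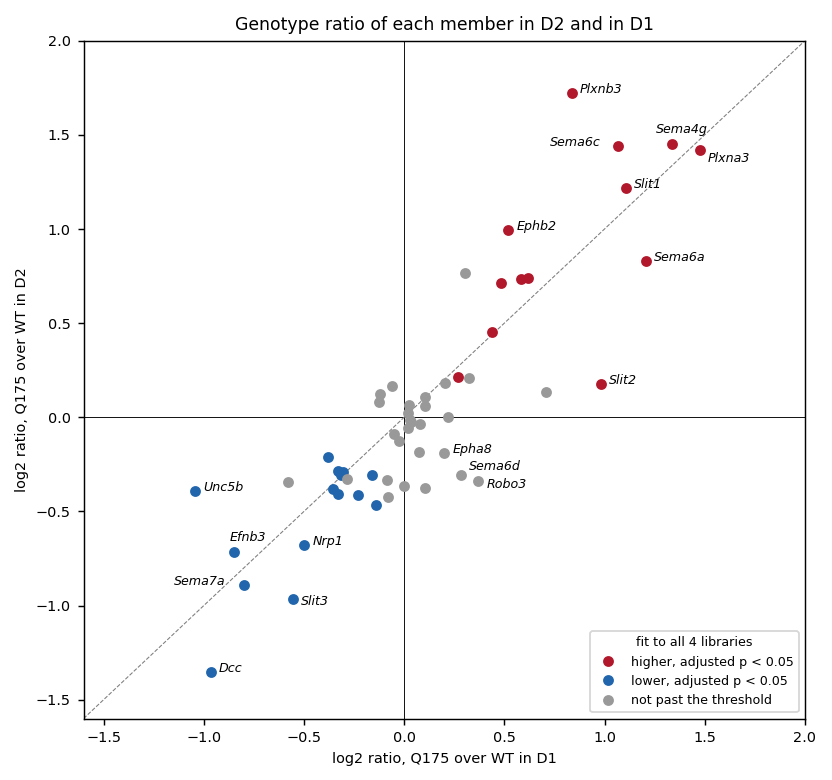
Log2 ratio of Q175 to WT in D2 (vertical) against that in D1 (horizontal) for the guidance genes with at least 1 CPM in any library, 1 point per gene, with the line of equal ratios dashed. Sema4g, Sema6c, Plxna3 and Slit1 lie high on both axes, Dcc, Sema7a, Efnb3 and Slit3 low on both, and Robo3 and Sema6d lie below 0 in D2 and above 0 in D1.

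The same fit tested what differed between D2 and D1 neurons in both genotypes. Of the 63 guidance genes tested, 12 were higher and 11 lower in D2 (36.5%, beside 13.4% of all genes called, 6.71% in each direction). Among genes with at least 5 CPM, 20 of 47 guidance genes were called, beside 15.2% of all such genes. Both ligands (6 higher and 4 lower of 31) and receptors (6 higher and 7 lower of 31) were among them. Between single libraries, 3 of 46 guidance genes were at least 2-fold apart in Q175 (6.52%, beside 1.85% of all genes, 0.764% higher and 1.08% lower), Sema5a and Unc5d higher and Sema6d lower in D2. In WT, 4 of 44 were (9.09%, beside 2.1% of all genes, 0.867% higher and 1.24% lower), Robo3, Sema5a, Slit2 and Unc5d, all higher in D2. Without genotype in the fit, only Unc5d was called.

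Unc5d, a netrin receptor family member that also binds Flrt adhesion proteins, showed the widest difference of the guidance genes. It had 13.2 and 12.1 CPM in the D2 Q175 and D2 WT libraries and 0.885 and 0.967 CPM in the D1 Q175 and D1 WT libraries, a 13.7-fold difference. The log2 fold change of D2 over D1 was 3.78 ± 0.18 (edgeR adjusted p = 3.3e-14), and the genotypes within a cell type lay close together. Unc5c was likewise higher in D2, by 0.76 ± 0.11 (edgeR adjusted p = 1.1e-05), while Unc5a was not called, at 0.06. Dcc and Unc5b were not called either, at -0.34 and 0.66.

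The promoters of Sema5a and Slit2, the ligands with the largest excess in D2, are shown in the same form, with capitals again marking the Egr motif.
Sema5a (chr15:32244563-32244812, plus strand): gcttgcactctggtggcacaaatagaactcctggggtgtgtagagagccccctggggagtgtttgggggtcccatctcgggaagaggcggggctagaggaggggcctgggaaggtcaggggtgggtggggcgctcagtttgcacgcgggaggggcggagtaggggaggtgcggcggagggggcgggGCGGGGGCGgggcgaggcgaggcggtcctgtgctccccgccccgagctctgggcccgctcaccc
Slit2 (chr5:47982905-47983154, plus strand): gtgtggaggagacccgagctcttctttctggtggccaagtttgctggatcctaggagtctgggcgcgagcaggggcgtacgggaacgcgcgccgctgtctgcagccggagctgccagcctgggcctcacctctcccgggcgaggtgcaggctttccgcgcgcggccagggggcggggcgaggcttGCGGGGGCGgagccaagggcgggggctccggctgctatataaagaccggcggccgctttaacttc
Each held 1 match to the Egr motif and none to TGACG, with 17 CpG dinucleotides in Sema5a and 25 in Slit2. Sema5a, a transmembrane semaphorin with thrombospondin repeats, had 5.46 and 7.35 CPM in the D2 Q175 and D2 WT libraries and 1.63 and 1.73 CPM in the D1 Q175 and D1 WT libraries. The log2 fold change was 1.93 ± 0.19 (edgeR adjusted p = 3.7e-08), and the cell types did not overlap. Slit2 was higher in D2 by 1.27 ± 0.18 (edgeR adjusted p = 1.0e-05), its 4 values being those given with the Slit genes. Plxnb3 was higher by 1.19 ± 0.36 (edgeR adjusted p = 0.029), a call that only 1 of the alternative fits kept. Of 9 oligodendrocyte markers tested, 5 were also higher in D2 and 0 lower, beside 6.71% of all genes in each direction. The abundant markers Mbp and Mobp were not called, at 0.07 each. Robo3 was higher by 0.82 ± 0.11 (edgeR adjusted p = 7.9e-06), and both D2 values exceeded both D1 values.

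Slit and Robo genes were called in both directions between the cell types. Slit1 was lower in D2, at a log2 fold change of -0.80 ± 0.16 (edgeR adjusted p = 0.0013), where Slit2 was higher. Robo2 and Robo1 were lower in D2, at -0.54 ± 0.08 (edgeR adjusted p = 2.8e-05) and -0.32 ± 0.09 (edgeR adjusted p = 0.017), where Robo3 was higher. Slit3 was not called, at 0.05. DESeq2 ended the calls of Slit1 (adjusted p = 0.10), Robo3 (adjusted p = 0.20) and Robo1 (adjusted p = 0.14) and kept those of Slit2 and Robo2. Without the filter on low counts, Robo3 (edgeR adjusted p = 0.063) and Robo1 (edgeR adjusted p = 0.11) were not called.

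Several genes of the semaphorin system were lower in D2 than in D1 neurons. Sema6d had a log2 fold change of -0.94 ± 0.12 (edgeR adjusted p = 3.6e-06), and its D1 values exceeded its D2 values in both genotypes. Plxna2 had a log2 fold change of -0.66 ± 0.08 (edgeR adjusted p = 1.6e-06), Sema6a -0.74 ± 0.24 (edgeR adjusted p = 0.043), Sema4a -0.39 ± 0.09 (edgeR adjusted p = 0.0037) and Nrp1 -0.39 ± 0.12 (edgeR adjusted p = 0.028). Higher in D2 were Plxnb1 (0.66), Sema3e (0.49), Plxna4 (0.46), Sema4g (0.44) and Sema7a (0.27), all in log2 units with an edgeR adjusted p between 0.00018 and 0.040. In the ephrin system, Ephb1 had 50.6 and 62.6 CPM in the D2 Q175 and D2 WT libraries and 78.7 and 88.0 CPM in the D1 Q175 and D1 WT libraries, a log2 fold change of -0.56 ± 0.08 (edgeR adjusted p = 2.9e-05). Epha3 (-0.65) and Epha6 (-0.42) were lower in D2 as well, with edgeR adjusted p-values of 0.027 and 0.045. The ligand Efnb3 was higher (0.42, edgeR adjusted p = 0.00076). These calls differed in how many of the alternative fits described below kept them. Only 1 kept each of Sema4g, Sema7a, Sema6a and Epha6, and 2 kept each of Nrp1 and Epha3, while 6 kept Ephb1 and Plxna2.

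**Figure D5:**
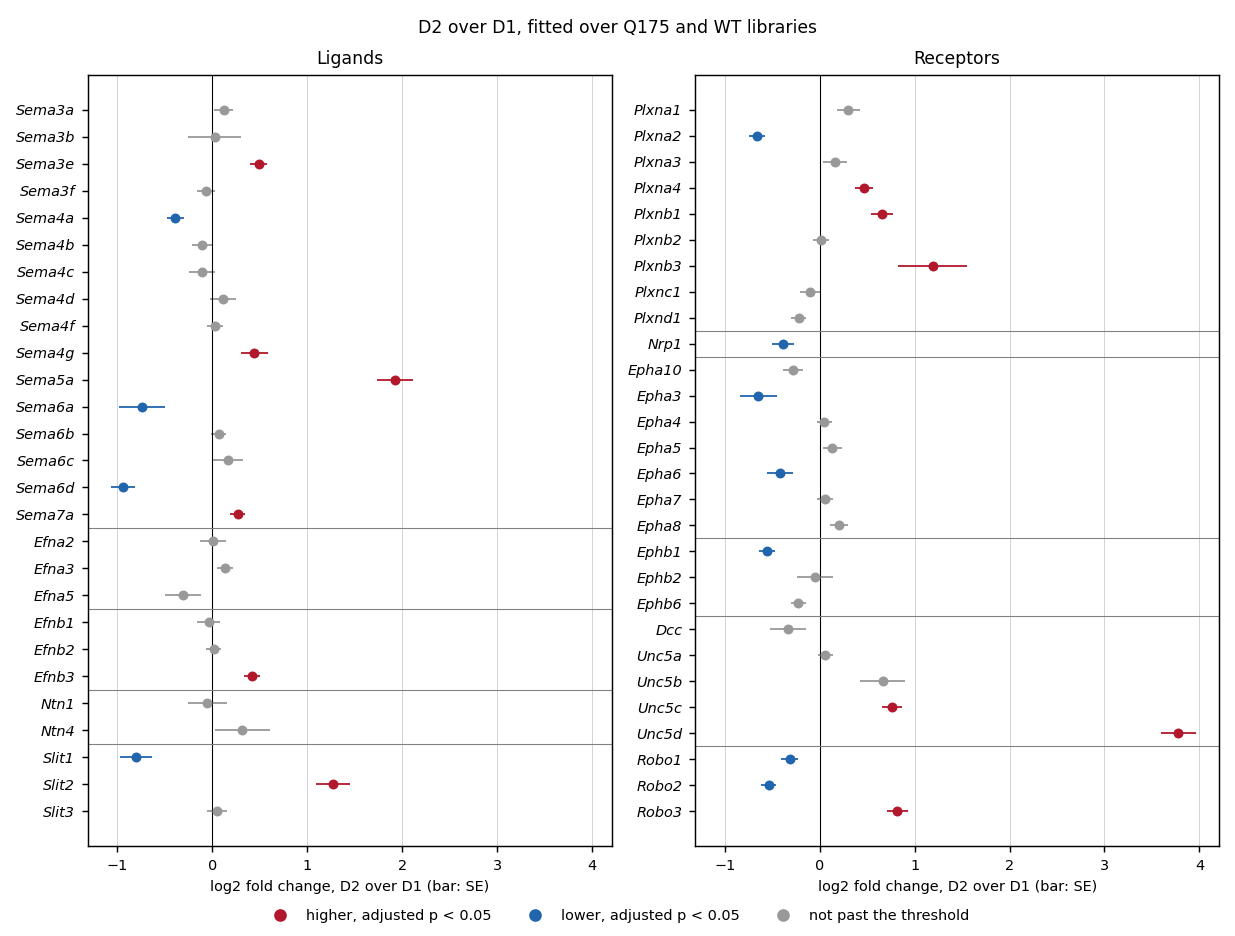
Shared cell type effect of the ligands (left) and receptors (right) with at least 1 CPM in any library, as log2 fold change of D2 over D1 with its standard error. Unc5d stands apart at 3.78, Sema5a, Slit2 and Plxnb3 lie above 1, and Sema6d, Slit1 and Sema6a lie below -0.7.

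Other genes of these pathways were read from a pair of lists. Of 21 further ligands, co-receptors and adhesion molecules tested, 2 rose and 4 fell with genotype, beside 27.8% of all genes called, with a median log2 fold change of -0.063 beside 0.004 over all genes. The member that moved by at least 0.5 was Rtn4r, the Nogo receptor, at 0.890 and 1.76 CPM in the D2 Q175 and D2 WT libraries and 1.12 and 1.96 CPM in the D1 Q175 and D1 WT libraries (log2 fold change -0.88 ± 0.26; edgeR adjusted p = 0.015). Of 53 effectors downstream of the receptors, 11 rose and 12 fell, with a median of 0.039. With cell type, 4 of the 21 were higher and 4 lower in D2, and 3 of the 53 higher and 9 lower, beside 13.4% of all genes called.

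Among the effectors, Dpysl3, a collapsin response mediator protein of the semaphorin 3 pathway, had 12.3 and 4.55 CPM in the D2 Q175 and D2 WT libraries and 13.9 and 5.62 CPM in the D1 Q175 and D1 WT libraries. Mical1, an actin-oxidizing enzyme that binds A-type plexins, had 4.91 and 1.26 CPM in the D2 Q175 and D2 WT libraries and 2.23 and 0.837 CPM in the D1 Q175 and D1 WT libraries. Both rose, Dpysl3 by 1.37 ± 0.13 (edgeR adjusted p = 6.1e-08) and Mical1 by 1.73 ± 0.24 (edgeR adjusted p = 6.0e-06). Rnd1, a small GTPase that binds plexins, rose by 0.93, the actin regulator Vasp by 0.86, the actin-binding Ablim1 by 0.79 and the guanine nucleotide exchange factor Vav3 by 0.68, with edgeR adjusted p-values between 8.6e-07 and 0.00071. The effectors that fell by at least 0.5 were abundant. Ngef (ephexin), an exchange factor bound by EphA receptors, had 864 and 1296 CPM in the D2 Q175 and D2 WT libraries and 815 and 1212 CPM in the D1 Q175 and D1 WT libraries, and fell by 0.57 ± 0.09 (edgeR adjusted p = 4.6e-05). Kalrn, a Rac exchange factor of dendritic spines, fell by 0.66 ± 0.09 (edgeR adjusted p = 5.8e-06), and Chn1 (alpha-chimaerin), a Rac inactivator downstream of Epha4, fell by 0.56 ± 0.09 (edgeR adjusted p = 6.9e-05).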

How the data were processed

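The authors deposited expected counts per Ensembl gene without normalization, 18.7% of them not whole. They also deposited FPKM, which corrects for transcript length and library size. The submitters' processing notes name CASAVA 1.8.2. For the aligner, counter, strand setting, build and annotation, no name is given in the sources used here. Symbols came from GENCODE M21 for 32897 of 37620 identifiers, and promoters from RefSeq (GRCm38.p6).

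Counts were rounded. Genes were kept by filterByExpr, scaled by TMM and tested two-sided with the edgeR 4.0.16 quasi-likelihood test under R 4.3.3, additive in genotype and cell type over all 4 libraries and Benjamini-Hochberg adjustment over 15668 genes at a threshold of 0.05. The standard error is the fold change divided by the root of its F statistic. The fit leaves 1 residual degree of freedom. Each group held 1 library, a pool of 4 animals, so p-values measure the spread left by the additive fit, which may be technical. Log2 ratios of 2 libraries used normalized CPM with a prior count of 2, and their 95% exact conditional binomial intervals cover counting error alone, since reads were not tagged with molecular identifiers. Counts of genes 2-fold apart required 5 CPM in either library, and medians 1 CPM in any library. Such ratios have no p-value. The fit was tested on simulated counts before use.

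The genes, lists and tests were chosen with earlier results of these data known. A gene was given with its values in every library when it passed the genotype test with a log2 fold change of at least 0.5, or the cell type test with at least 1, at 1 CPM or more, when it was at least 2-fold apart in any pair of libraries, or when it had the highest mean FPKM of its family, which gave 28 genes. Others named with values were chosen after their values were seen. Of the 68 genes, 12 had counts that were not whole. Against GENCODE M21, Efna3 shared 14.1% and Plxna1 10.7% of exonic bases with an antisense gene, and without a known strand setting reads of such pairs cannot be told apart. Alternatives were RLE factors, library totals, no filter, a fit without the other factor, DESeq2 1.42.0, and limma 3.58.1 on log2(FPKM + 0.1) and log2(FPKM + 1).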

Additional observations from a re-analysis of the deposited data

Results flagged for a closer look

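Some guidance genes had genotype ratios of opposite sign in the 2 cell types, with counting intervals that left out 0, and none of these differences could be tested. The log2 ratio of Q175 to WT was -0.34 in D2 and 0.37 in D1 for Robo3, -0.31 in D2 and 0.29 in D1 for Sema6d, and -0.19 in D2 and 0.20 in D1 for Epha8, an EphA receptor. For Efnb2, a transmembrane ephrin, it was 0.17 in D2 and -0.06 in D1. The log2 ratio of D2 to D1 likewise differed in sign between genotypes for Slit3, at -0.17 in Q175 and 0.24 in WT, and for Efnb2, at 0.12 in Q175 and -0.11 in WT. Each of these rests on single libraries, and the intervals cover counting error alone.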

How the results depend on the processing

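Counts of guidance genes called depended on the fit. Of the 29 genotype calls, RLE factors kept 29, library totals 22, DESeq2 17, no filter 17, limma on log2(FPKM + 0.1) 12, limma on log2(FPKM + 1) 9 and the fit without cell type 0. Sema4g, Sema6c, Plxna3, Slit1, Sema7a, Efnb3 and Slit3 were called under all of these except the last. In the genotype effect, the number higher was 9 with no filter, 7 with DESeq2, 8 with limma on log2(FPKM + 1) and 0 without cell type, and the number lower 8 with library totals, 8 with no filter, 3 in each limma fit and 0 without cell type. Library totals moved the median of all genes to 0.084. Of the 23 cell type calls, the number higher in D2 was 6 with no filter, 2 and 1 in the limma fits at 0.1 and 1, and 1 without genotype, and the number lower 5 with no filter, 5 with DESeq2, 4 and 2 in the limma fits and 0 without genotype. Ephb1, Plxna2 and Unc5d were called under all of these except the fit without genotype, which called only Unc5d. No gene called in a shared effect changed direction under these alternatives. For genes not called, sign was followed only among the 28 genes given by rule with values in every library. Of these, the sign changed in at least 1 alternative for Unc5a, Robo3 and Sema6d in the genotype effect. In the cell type effect it changed for Efna2, Sema6c and Plxnb2. Genotype calls were gained too, 2 with library totals (Efnb1 and Ntn1) and 2 in each limma fit (Ephb6 and Plxnb2), all higher in Q175. Genes 2-fold apart between Q175 and WT numbered 6 at 1 CPM, 0 at 20 CPM and 1 with FPKM + 1 in D2, and 0 at 20 CPM and 1 with FPKM + 1 in D1. Between D2 and D1, they numbered 1 at 20 CPM and 1 with FPKM + 1 in Q175, and 1 at 20 CPM and 2 with FPKM + 1 in WT. The median genotype ratio in D2 was 0.030 with library totals and 0.004 in FPKM, and that in D1 was 0.129 in FPKM. With library totals, chosen after seeing the data, the Efnb2 ratio in D1 was 0.036. The causes were not tested. No paired analysis was possible because each group held 1 library, and leaving out a library leaves no residual degrees of freedom, so that alternative was not run.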

Other observations

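Antisense genes of Plxna4 were read beside it, since strand was not known. Plxna4os2 had 3 and 2 counts in the D2 Q175 and D2 WT libraries and 7 and 5 counts in the D1 Q175 and D1 WT libraries, Plxna4os1 had between 1 and 2 counts in every library, and Plxna4os3 was at 0 in all 4.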
